A study of Mus musculus with 8 samples.

Results

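Genes of membrane curvature, 10 in all, were followed in epididymal white adipose tissue (eWAT), the visceral fat pad beside the epididymis, of Abhd15 knockout (KO) and wild-type (WT) mice. They were the EHD genes Ehd1, Ehd2, Ehd3 and Ehd4, the caveolins Cav1 and Cav2, the cavins Cavin1, Cavin2 and Cavin3, and Pacsin2. All 10 were found among the 22180 genes named on the array. For each gene the probe set annotated to it alone was taken, and only Ehd1 had more than 1, of which the brighter was kept. The choice of probe set used the mean over all 8 arrays and not the genotype, but the genes were put together with the difference in Ehd3 already known. The Ehd3 values are therefore a description, and no test of them is offered as support.

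The groups were 3 WT and 5 Abhd15 KO males on a C57BL/6J background, 14 weeks old and kept on normal chow, that were fasted overnight and given chow again for 1 h ahead of tissue collection. Each mouse gave 200 ng of RNA to 1 Affymetrix Mouse Gene 2.0 ST array. The sources used here do not describe the knockout allele. ABHD15, which belongs to the alpha/beta-hydrolase fold proteins and is abundant in adipocytes, has been tied to phosphodiesterase 3B, and the design asks what its loss changes in fat early after feeding. Values are log2 RMA values: 1 unit is a doubling of signal, and levels of different genes cannot be set against each other because each has its own probes.

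EHD proteins are ATPases of the dynamin superfamily that assemble on membranes and bend or tubulate them. EHD1, EHD3 and EHD4 work mainly in the return of endocytosed receptors from endosomes, while EHD2 sits at the neck of the caveola and holds it at the cell surface. Caveolae are small flask-shaped pits of the plasma membrane whose coat is made of caveolins and cavins, and adipocytes and endothelial cells are among the cells richest in them. In fat they carry lipid and insulin signalling components, and loss of caveolin-1 or cavin-1 causes lipodystrophy.

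The libraries set limits that touch what follows. The adipocyte list was bright in all arrays (9 of 10 markers measured, gene means 8.24 to 12.79), matching the labelled tissue. Its mean was 10.36 to 10.64 in WT and 10.04 to 10.64 in KO, with 7 of 9 markers lower in KO. Abhd15 itself read 6.36, 6.45 and 6.14 in WT 1 to WT 3 and 5.77, 6.07, 6.27, 5.60 and 5.75 in KO 1 to KO 5 at its brighter probe set. The array labelled KO 3 lay inside the WT range. At the dimmer probe set WT 1 to WT 3 read 4.13, 4.50 and 4.07. There the array labelled KO 3 read 4.19, again inside the WT range. KO 1, KO 2, KO 4 and KO 5 read 3.33, 3.65, 3.21 and 3.31, all below WT. The sources used here do not place the probes against the deleted part, so these values do not check the labels. Immediate early genes, induced within minutes by handling or stimulation, averaged 6.63 in KO 1, 6.68 in KO 2 and 5.64 in the array labelled KO 3, against 4.33 to 4.85 elsewhere (8 of 8 higher in KO). Epididymis and seminal vesicle transcripts averaged 3.73 in WT 1 and 5.12 in KO 4, against 2.05 to 2.49 elsewhere. KO 5 had the lowest median over tested genes (5.929, others 6.035 to 6.068).

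Ehd3 was higher in every KO mouse than in any WT mouse. Of the others, Cav2 alone was also separated, by a narrow gap. Ehd2, Cav1 and Cavin3 had log2 fold changes of 0.24 to 0.45 with overlapping groups, and those of Ehd1, Ehd4, Cavin1, Cavin2 and Pacsin2 were between -0.10 and 0.14. In limma, adjusted by Benjamini-Hochberg over the 11090 genes tested, none of the 10 passed the threshold of 0.05, and neither did any other gene (0%). At an unadjusted p under 0.05, 2 of the 10 were past, Ehd3 and Cav2, both higher in KO. Over all genes tested 10.5% were past it, 4.04% higher and 6.46% lower in KO. Groups without overlap occurred in 2 of the 10 genes and in 8.53% of all tested genes (2.99% higher, 5.54% lower). Counts this small, in genes chosen with Ehd3 known, are given as a description. The median log2 fold change was 0.19 over the 10 genes and -0.03 over all tested genes, and 7 of the 10 were above 0 against 44.8% of all. No member depended on 1 group to be measured, since the lowest array of each was above the level filter of 3.61.

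**Figure D1:**
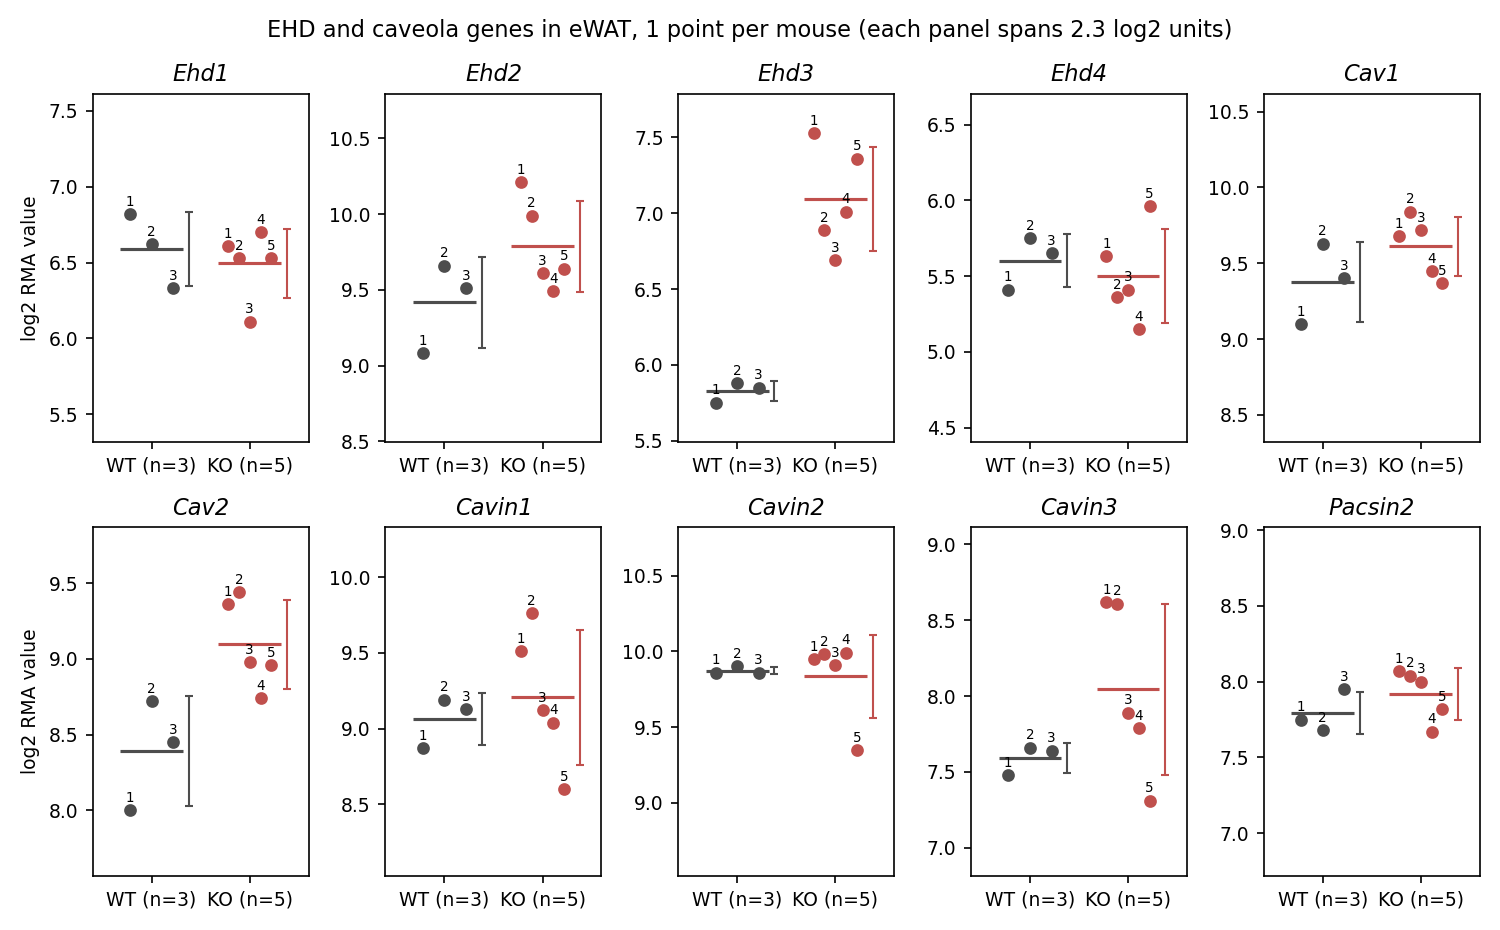
Log2 RMA value of each gene in WT (grey, n = 3) and Abhd15 KO (red, n = 5) eWAT, 1 numbered point per mouse, with the mean as a line and the SD as a bar beside it. Ehd3 and Cav2 are the genes whose KO points all lie above the WT points, and the KO 5 point is lowest for all 3 cavins.

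Ehd3, which moves cargo from early to recycling endosomes, read 5.75, 5.88 and 5.85 in WT 1 to WT 3. In KO 1 to KO 5 it read 7.53, 6.89, 6.69, 7.01 and 7.36. The WT arrays lay within 0.2 of each other, and the lowest KO array, the one labelled KO 3, was well above all of them. Means were 5.83 ± 0.0678 (SD, n = 3) and 7.10 ± 0.343 (SD, n = 5), so that KO was higher by 1.27 log2 units (SE 0.190), or 2.41-fold. Of the tested genes 13 had a higher log2 fold change and 5 a smaller unadjusted limma p. These ranks describe a gene chosen with its difference known. The limma adjusted p was 0.0961 and did not pass. With array weights, which give KO 5 the least weight, it was 0.0271, and 40 genes of the whole table passed. Leaving out 1 array at a time kept the log2 fold change between 1.16 and 1.37. Without KO 1 and KO 2, the arrays highest in immediate early genes, it was 1.19. Without WT 1 and KO 4, the arrays highest in epididymis and seminal vesicle transcripts, it was 1.25. That fit kept WT 2, where testis genes averaged 5.61, against 6.93 in WT 1 and 5.36 in KO 4.

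The RefSeq promoter windows of Ehd3 and Cav2, from 250 bases before to 50 after the start site, are shown because these were the genes whose groups did not overlap. Capitals mark matches on either strand to the AP-1 motif (TGACTCA), the cyclic AMP response element or CRE (TGACGTCA), the FOXO motif (GTAAACA), the E-box (CACGTG), the GC box (GGGCGG), the CCAAT box, named by its letters, and the TATA box element (TATAAA). The build is GRCm38.p6. The Ehd3 window is chr17:73804591-73804890 and the Cav2 window chr6:17280935-17281234, both on the plus strand.
Ehd3: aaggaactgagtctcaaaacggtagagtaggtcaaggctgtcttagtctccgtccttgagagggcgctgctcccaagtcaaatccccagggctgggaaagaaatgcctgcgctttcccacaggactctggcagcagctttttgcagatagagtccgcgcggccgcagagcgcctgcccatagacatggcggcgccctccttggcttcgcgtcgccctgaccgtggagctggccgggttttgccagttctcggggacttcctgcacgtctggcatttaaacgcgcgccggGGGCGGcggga
Cav2: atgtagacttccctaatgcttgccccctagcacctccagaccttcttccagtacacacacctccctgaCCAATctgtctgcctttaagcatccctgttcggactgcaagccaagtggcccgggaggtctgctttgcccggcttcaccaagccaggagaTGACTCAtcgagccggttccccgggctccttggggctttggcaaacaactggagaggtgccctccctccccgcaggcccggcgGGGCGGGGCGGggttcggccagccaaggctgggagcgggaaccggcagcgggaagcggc

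In the Ehd3 window the capitals are a single GC box, which starts 39 bases after the start site. The Cav2 window held a CCAAT box 182 bases and an AP-1 match 92 bases before the start site, and 2 overlapping GC boxes that start 9 and 4 bases before it. A GC box was present in 35.7% of the 32851 mouse windows, a CCAAT box in 37.4% and an AP-1 match in 5.20%. Of the 10 genes 8 had 12 windows in all, since some have several start sites, and the windows of Cavin1 overlap almost wholly. A GC box was in 8 of the 12, a CCAAT box in 8, an AP-1 match in 2 (Cav2 and Pacsin2), a TATA match in 1 (Cav1), and a CRE, FOXO or E-box match in none. CRE, FOXO, E-box and TATA matches occurred in 1.79%, 3.65%, 7.15% and 13.6% of all windows. These are letters in a window and not binding sites.

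By the mean absolute difference of the profiles over the 8 arrays, each centred on its own mean, the 3 tested genes most like Ehd3 were Ndrg1 (0.23 log2 units), Mturn (0.25) and Sik1 (0.25). The median over the other 11089 tested genes was 0.63. Ndrg1, a stress-response gene, read 8.31, 8.74 and 8.88 in WT and 10.01, 9.48, 9.51, 9.56 and 9.28 in KO. Mturn read 6.69, 7.03 and 6.80 in WT and 8.14, 7.92, 7.44, 7.93 and 7.42 in KO. Sik1, a kinase induced by cyclic AMP, read 6.65, 6.74 and 6.54 in WT and 7.73, 7.78, 7.11, 7.32 and 7.76 in KO. A profile like that of Ehd3 has to be higher in KO, so their separation adds nothing. Within the 10 genes Cav2 was nearest to Ehd3 (0.37, rank 78 of the genes compared), and Ehd1 and Ehd4 were farthest (0.64 each).

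In the other EHD genes the groups overlapped. Ehd1, a factor of receptor recycling, read 6.82, 6.62 and 6.33 in WT and 6.61, 6.53, 6.11, 6.70 and 6.53 in KO. The groups overlapped, with a log2 fold change of -0.09 (SE 0.168, 95% interval -0.47 to 0.28, limma adjusted p = 0.876, exact permutation p = 0.607). Its dimmer probe set, with a mean of 5.57 against 6.53 for the kept one, read 5.41, 5.96 and 5.83 in WT and 6.01, 5.61, 5.49, 5.23 and 5.01 in KO. There the log2 fold change was -0.26 (exact permutation p = 0.393), and the order of the arrays differed from that of the kept probe set: WT 1 was the highest WT array on one and the lowest on the other.

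Ehd4, which acts at early endosomes, read 5.41, 5.75 and 5.65 in WT and 5.63, 5.36, 5.41, 5.15 and 5.96 in KO. KO 4 was the lowest and KO 5 the highest of all arrays, so the KO values enclosed the WT values. KO minus WT was -0.10 log2 units (95% interval -0.51 to 0.31, limma adjusted p = 0.879, exact permutation p = 0.536). The intervals of Ehd1 and Ehd4, which are for differences of group means, end at 0.28 and 0.31.

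Ehd2, the EHD of the caveolar neck, read 9.08, 9.66 and 9.51 in WT and 10.21, 9.99, 9.61, 9.49 and 9.64 in KO. KO 1 and KO 2 were above all WT arrays and the other 3 KO arrays were inside the WT range. The log2 fold change was 0.37 (SE 0.199, 95% interval -0.08 to 0.81, limma adjusted p = 0.547, exact permutation p = 0.25). It was 0.16 without KO 1 and KO 2.

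**Figure D2:**
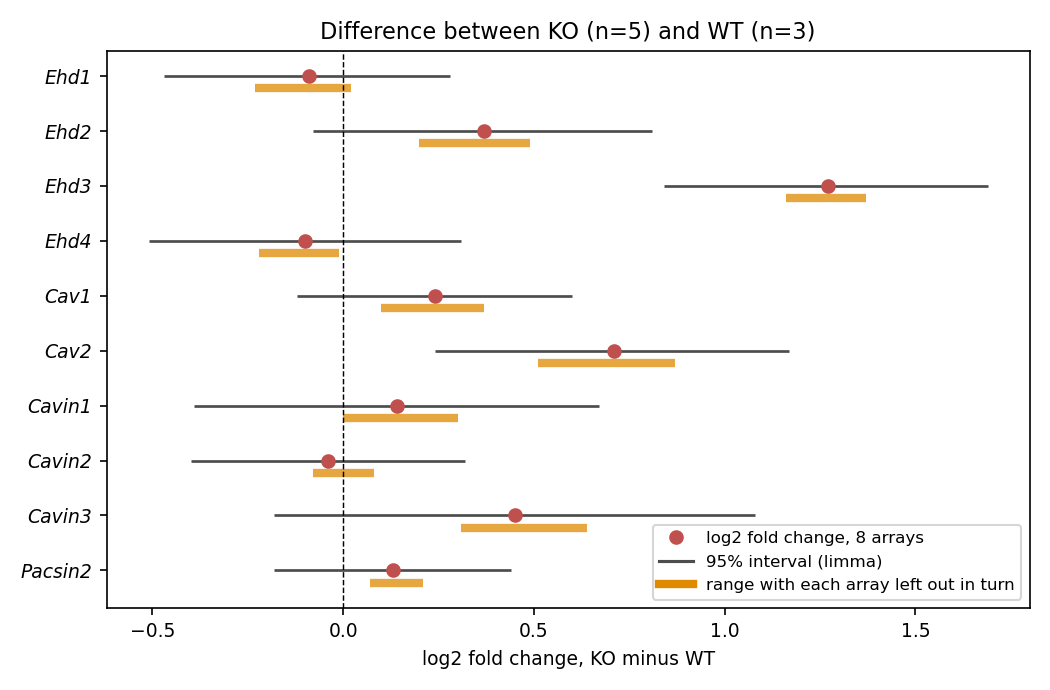
Log2 fold change (KO minus WT) of each gene with its 95% limma interval (thin line), and the range of the estimate when each of the 8 arrays is left out in turn (thick line). The left-out range of Ehd3 runs from 1.16 to 1.37 and that of Cav2 from 0.51 to 0.87, while those of Ehd1 and Cavin2 cross 0.

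The caveolins are the integral membrane proteins of the pit. Cav1, without which caveolae do not form in adipocytes, read 9.10, 9.63 and 9.40 in WT and 9.68, 9.84, 9.72, 9.45 and 9.37 in KO. KO 1, KO 2 and the array labelled KO 3 were above all WT arrays, and KO 4 and KO 5 were inside the WT range. KO exceeded WT by 0.24 (SE 0.162, 95% interval -0.12 to 0.60, limma adjusted p = 0.633, exact permutation p = 0.179). It was 0.10 without WT 1, the lowest array for this gene.

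Cav2, the partner that assembles with caveolin-1, lies next to Cav1 on chromosome 6. It read 8.0, 8.72 and 8.45 in WT 1 to WT 3 and 9.36, 9.44, 8.98, 8.74 and 8.96 in KO 1 to KO 5. The KO arrays were all above the WT arrays, but KO 4 and WT 2 nearly touched. Means were 8.39 ± 0.364 (SD, n = 3) and 9.10 ± 0.292 (SD, n = 5), so that KO was higher by 0.71 log2 units (SE 0.207, 95% interval 0.24 to 1.17), or 1.63-fold. It did not pass in limma over all genes (adjusted p = 0.313, unadjusted p = 0.00673). The exact two-sided permutation p over the 56 divisions of the arrays was 0.0357, the smallest possible, and 0.0714 after median centring of the arrays. Of the 9 genes tested by permutation at their kept probe set, Cav2 was the 1 under 0.05, with no adjustment for their number. A permutation p under 0.05 requires groups without overlap here, so it restates that separation, which 8.53% of all tested genes showed. Its log2 fold change was 0.51 without WT 1 and 0.50 without KO 1 and KO 2.

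Cavin1, the coat protein needed for caveolae to form, read 8.87, 9.19 and 9.13 in WT and 9.51, 9.76, 9.12, 9.04 and 8.60 in KO. KO 1 and KO 2 were above and KO 5 below all WT arrays. The log2 fold change of 0.14 (SE 0.238, limma adjusted p = 0.866, exact permutation p = 0.643) became -0.14 without KO 1 and KO 2, and 0.30 without KO 5.

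Cavin2, which shapes membrane curvature at the pit, read 9.86, 9.90 and 9.86 in WT and 9.95, 9.98, 9.91 and 9.99 in KO 1 to KO 4. KO 5 stood apart at 9.35, below all WT arrays, while the other 4 KO arrays were above them by at most 0.1. Its log2 fold change was -0.04 (95% interval -0.40 to 0.32, limma adjusted p = 0.956, exact permutation p = 0.786), and 0.08 without KO 5.

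Cavin3, first known as a binding protein of protein kinase C delta, had the largest within-group SD of the 10 genes, pooled over both groups. Its spread lay in KO (SD 0.565) and was small in WT (SD 0.0988). Cavin3 read 7.48, 7.66 and 7.64 in WT and 8.62, 8.61, 7.89, 7.79 and 7.31 in KO. KO 1 and KO 2 were about 1 unit above the WT mean, the array labelled KO 3 and KO 4 slightly above all WT arrays, and KO 5 below them. The log2 fold change was 0.45 (SE 0.282, 95% interval -0.18 to 1.08, limma adjusted p = 0.599, exact permutation p = 0.286). It was 0.07 without KO 1 and KO 2, and 0.64 without KO 5. The within-group SD of Cavin3, 0.465, exceeded that of 91.7% of the tested genes, and that of Cavin1, 0.380, exceeded 84.9%.

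Pacsin2, an F-BAR protein that binds caveolae and EHD proteins, had the smallest pooled SD. It read 7.75, 7.68 and 7.95 in WT and 8.07, 8.04, 8.0, 7.67 and 7.82 in KO, where KO 1, KO 2 and the array labelled KO 3 were above all WT arrays and KO 4 just below them. On average KO exceeded WT by 0.13 (95% interval -0.18 to 0.44, limma adjusted p = 0.780, exact permutation p = 0.286). Its pooled SD of 0.163 exceeded that of 22.6% of the tested genes. In WT alone its SD of 0.142 was above those of Cavin2, Ehd3 and Cavin3.

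Single arrays were extreme for several of the genes at once. In WT, 8 of the 10 genes were lowest in WT 1 and the same 8 highest in WT 2. In KO, 7 of the 10 were highest in KO 1 or KO 2, and the 3 cavins and Cav1 were lowest in KO 5. Over the 7 genes tied to the caveola (the caveolins, cavins, Ehd2 and Pacsin2) the mean level was 8.59, 8.92 and 8.85 in WT and 9.34, 9.38, 9.04, 8.88 and 8.72 in KO, so the groups overlapped. KO 1 and KO 2, the top 2 arrays, were also the top 2 for immediate early genes. KO 5 had the lowest adipocyte mean (10.04) and the lowest median over tested genes. The part of these array differences in the caveolar values was not tested. Ehd3 shared part of this pattern: it was among those 8 genes in WT, and its highest array was KO 1. It differed in that its second highest array was KO 5 and its lowest KO array the one labelled KO 3.

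**Figure D3:**
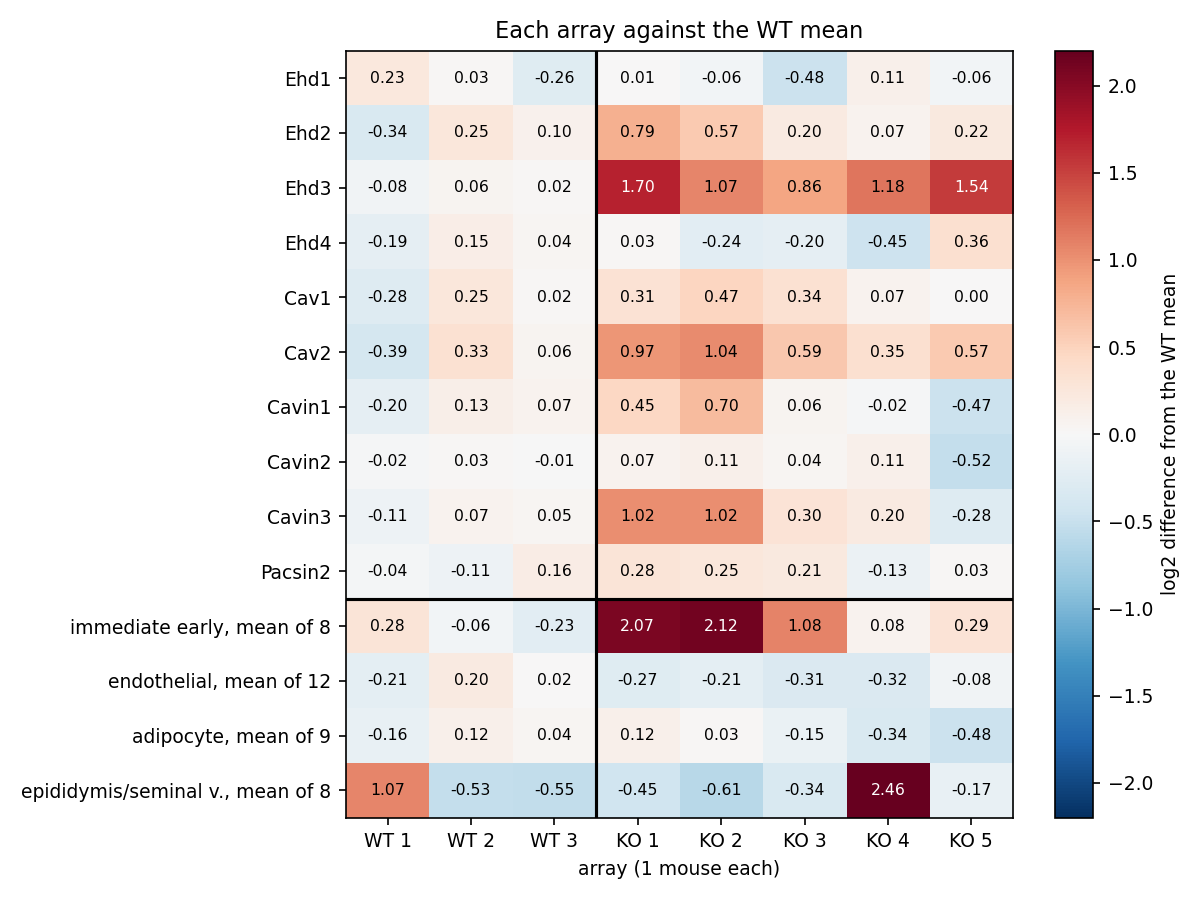
Difference of each array from the WT mean in log2 units for the 10 genes (above the line) and for the mean of 4 marker lists (below it). Ehd3 is 0.86 to 1.70 in all KO arrays, Cavin3 is 1.02 in KO 1 and KO 2 but -0.28 in KO 5, and the immediate early mean is also highest in KO 1 and KO 2.

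Endothelial cells are the other main holders of caveolae in fat. Of their 12 markers 8 were lower in KO, and 5 lower and 1 higher had an unadjusted p under 0.05, with a list mean of 7.28 to 7.69 in WT and 7.17 to 7.41 in KO. Of all tested genes 44.8% were above 0, and 6.46% were lower and 4.04% higher at that unadjusted p. No marker of the endothelial list was under the level filter. Fibroblast and preadipocyte markers (5 of 9 lower, means 8.47 to 8.82 in WT and 8.39 to 8.83 in KO), smooth muscle and pericyte markers (5 of 8 lower, 6.53 to 6.94 and 6.52 to 6.88), macrophage markers (7 of 9 lower, 7.86 to 8.05 and 7.60 to 8.11) and mesothelial markers (2 of 7 lower, 5.53 to 5.74 and 5.49 to 5.87) overlapped between the groups. In whole tissue, fewer cells of a type and less RNA per cell cannot be told apart, and the part of cell composition in the values of the 10 genes was not tested.

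Partners of the 10 genes were read from lists chosen by function. Of 18 genes for caveola partners and cargo, 14 were tested, 4 higher and 10 lower in KO with a median log2 fold change of -0.11, and none passed. The 4 under the level filter, named after their values were seen, were the muscle forms Cav3 (mean 2.03) and Cavin4 (3.44) and the Pacsin2 relatives Pacsin1 (2.52) and Pacsin3 (3.13). The insulin receptor gene Insr, whose protein resides partly in caveolae, read 9.54, 9.38 and 9.45 in WT and 8.83, 8.81, 8.97, 9.02 and 8.92 in KO. All KO arrays were below all WT arrays, a log2 fold change of -0.54 (SE 0.115, limma adjusted p = 0.179). Nos3, the endothelial nitric oxide synthase that binds caveolin-1, read 6.36, 6.56 and 6.77 in WT and 5.66, 5.96, 6.02, 6.09 and 5.94 in KO, again without overlap, at -0.63 (SE 0.144, limma adjusted p = 0.221). Src, which phosphorylates caveolin-1, was at 0.30 (limma adjusted p = 0.548) and overlapped.

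Of 18 genes for EHD partners and endocytic recycling, 17 were measured and 16 tested, 7 higher and 9 lower (median -0.03), and none passed. Ehbp1l1, which encodes an EHD-binding protein, read 6.75, 6.57 and 6.55 in WT and 6.22, 6.24, 5.87, 6.14 and 6.54 in KO. The KO arrays were all lower, KO 5 by a hair, at a log2 fold change of -0.42 (SE 0.156, limma adjusted p = 0.393). Tfrc, the transferrin receptor and a classic recycling cargo, was at -0.34 (limma adjusted p = 0.639), and the SNARE gene Snap29 at 0.17 (0.669), both with overlap. Of the 4 EHD genes and the 16 tested recycling genes, Ehd3 was the 1 whose KO arrays were all above WT. Its difference was known when the genes were chosen, and 2.99% of all tested genes were separated in this direction.

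All 6 genes for flotillins and other raft proteins were tested and all 6 were higher in KO (median 0.23), none past the threshold and none without overlap. Flot1, a scaffold of membrane rafts outside caveolae, read 5.54, 6.11 and 5.81 in WT and 6.54, 6.55, 6.10, 6.17 and 6.38 in KO. The array labelled KO 3 reached just into the WT range, and the log2 fold change was 0.53 (SE 0.168, limma adjusted p = 0.335). Flot2 was at 0.31 (0.545) and Erlin2, a raft-type protein of the endoplasmic reticulum, at 0.35 (0.548). Of 16 genes for the clathrin and AP-2 coat, the other main endocytic route, 15 were measured and 13 tested, 3 higher and 10 lower (median -0.03), none past the threshold and none without overlap. The nearest were the AP-2 subunits Ap2s1 (0.19, limma adjusted p = 0.611) and Ap2m1 (-0.16, 0.680) and the coat initiator Fcho2 (-0.22, 0.619).

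**Figure D4:**
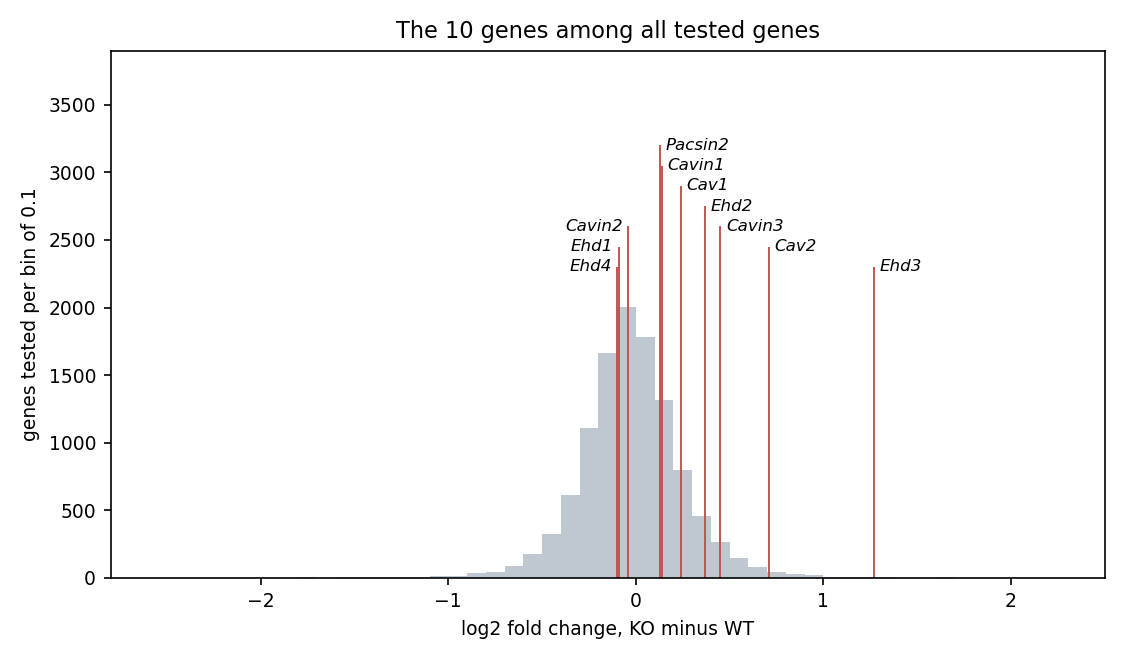
Number of tested genes in each bin of 0.1 of the log2 fold change (KO minus WT), with the 10 genes as red lines whose heights only separate the labels. Ehd3 at 1.27, Cav2 at 0.71 and, narrowly, Cavin3 at 0.45 lie above the range from -0.44 to 0.42 that holds the middle 90% of the genes, and the other 7 lie within it.

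The replicate numbers shared by WT and KO are not said to pair mice, and the main fit left them out. Same-numbered WT and KO arrays deviated together from their group means with correlations of 0.103 to 0.192 over tested genes. Pairs with unlike numbers ran from -0.244 to 0.105. These values do not settle whether mice were paired, so the block is only an alternative. With the number as a block, a fit that rests on KO 1 to KO 3, 2 genes of the whole table passed, neither among the 10, and 4 of the 10 had an unadjusted p under 0.05 (Ehd3, Cav1, Cav2 and Cavin3) where 2 had without it. Over all tested genes the block raised that count from 1164 (10.5%) to 1997 (18%). Ehd3 then stood at 1.21 (limma adjusted p = 0.126) and Cav2 at 0.87 (0.147). Cavin1 moved from 0.14 to 0.40 (0.291), Cavin3 from 0.45 to 0.78 (0.165) and Ehd2 from 0.37 to 0.52 (0.292). Cav1 moved from 0.24 to 0.37 (0.235), Pacsin2 from 0.13 to 0.25 (0.366) and Cavin2 from -0.04 to 0.07 (0.769). Ehd1 went from -0.09 to -0.18 (0.462) and Ehd4 from -0.10 to -0.14 (0.674).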

How the data were processed

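The deposited table holds log2 values of 41345 probe sets for 8 arrays, made by the authors with RMA (background correction, normalization across arrays and summary per probe set). The submitters' processing notes list RMA and oligo, and the design text lists Expression Console, without versions or a genome build. No renormalization was applied. Arrays carry no counts, and their number limits the precision. Per the labels each array is of a different mouse.

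Probe sets with 1 gene symbol (23521; 1814 had several, 16010 none listed) were given current symbols by Entrez identifier (23328 matched, assembly GRCm38.p6). Of several per gene the brightest was kept, giving 22180 genes, and the 11090 whose mean reached the median of gene means (3.61) were tested. The contrast KO minus WT was fitted in limma 3.58.1 (R 4.3.3; lmFit, eBayes, two-sided, Benjamini-Hochberg, threshold 0.05). For members other than Ehd3 an exact two-sided permutation test was added, whose smallest p is 0.0357. For KO against WT the fit was tested on simulated data drawn from the 11090 genes, and recovered 8.80% of changes of 0.5, 71.0% of changes of 1 and 94.0% of changes of 2 (log2). Each simulated run held a set of changed genes and normal noise drawn independently for every gene. Shifts shared by many genes of an array were absent, so these shares need not hold for the deposited values.

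Members and lists were chosen with earlier results of these data known, and the promoter motifs after the windows had been seen. Named genes were all 10 members, the 3 tested genes of each partner list with the smallest unadjusted p, and the 3 most like Ehd3. None of 5 erythroid genes had a probe set of its own. Of the testis list 6 of 7 genes were measured, with a mean of 6.93 in WT 1, 5.61 in WT 2, 5.36 in KO 4 and 3.64 to 4.28 elsewhere. Same-numbered WT and KO arrays deviated weakly together from their group means (correlation 0.133, 0.103 and 0.192 over tested genes, from the data, not the labels). Pairs with unlike numbers ran from -0.244 (WT 3 with KO 1) to 0.105 (WT 2 with KO 1). WT 2 thus went with KO 1 as closely as with KO 2, and the replicate block is only an alternative. Others were median centring, the mean of probe sets, other level filters, a trended robust prior, array weights and leaving out arrays. Figures were drawn with matplotlib 3.10.9.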

Additional observations from a re-analysis of the deposited data

Results flagged for a closer look

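Of 36 sets of 5 KO values examined, 3 held an array whose gap to the nearest other exceeded Dixon's critical value of 0.71, where chance flags about 1 set in 20. Ehd1 in the array labelled KO 3 (6.11) lay below the other KO arrays (6.53 to 6.70). Cavin2 in KO 5 (9.35) lay below the other KO arrays (9.91 to 9.99). The mean of 8 epididymis and seminal vesicle genes in KO 4 (5.12) lay above the other KO arrays (2.05 to 2.49).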

How the results depend on the processing

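The count of genes past the threshold, 0 with the values and settings as reported, was 3 with a trended robust prior, 40 with array weights, 2 with the replicate block, and 0 to 5 with single arrays left out, the 5 being without KO 5. The count of the 10 genes past it was 0 except with array weights (1, Ehd3). Among the log2 fold changes of the 10 genes, Ehd2, Ehd3, Ehd4, Cav1, Cav2, Cavin3 and Pacsin2 kept their sign in all 17 alternatives. Ehd1 turned to 0.02 without WT 1 and 0.0019 without KO 3 (-0.23 to 0.02 over arrays left out). Cavin1 turned to -0.14 without KO 1 and KO 2. Cavin2 turned to 0.03 with array weights, 0.07 with the replicate block and 0.08 without KO 5 (-0.08 to 0.08 over arrays left out). The cause was not tested. With the replicate block none of the 10 genes passed the adjusted threshold, while Cav1 and Cavin3 joined those with an unadjusted limma p under 0.05. Adjusted p-values of Ehd3 ran from 0.0271 to 0.506 and those of Cav2 from 0.139 to 0.728, the highest where WT 1 was left out. Genes with an unadjusted p under 0.05 numbered 1164, against 1871 with no level filter, 1873 with array weights, 1997 with the replicate block, 745 when WT 1 was omitted and 732 when KO 4 was omitted as well. Median centring moved the median of all genes by -0.01. Changes of 0.5 would mostly be missed at this number of arrays.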
